A study of Mus musculus with 20 samples.

Results

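The neurotrophin and GDNF-family pain genes Ngfr, Bdnf, Ntf3, Ntrk2, Ntrk3, Gdnf, Gfra1, Gfra2 and Artn were followed in bulk RNA sequencing of mouse knee joints. They were taken as the rows of the deposited table of normalized counts that carry these gene symbols. This gave 8 of the 9 listed genes, among 14793 genes in the table. Gdnf was not analysed here.

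The mice were C57BL/6Nci males, 12 weeks old at surgery. In all of them the medial meniscus of the right knee had been destabilized by this surgery, which leads to osteoarthritis. The 4 groups differed in treatment, with 5 joints sequenced in each and injections in weeks 3 and 5 after surgery. Control joints (CTRL) had the needle insertion alone. The others received mesenchymal stromal cells derived from adipose tissue. These cells were not activated (MSC), or had been activated through TLR3 with the double-stranded RNA mimic polyinosinic-polycytidylic acid (TLR3-MSC) or through STING with the cyclic dinucleotide 2′,3′ cGAMP (STING-MSC). The sources used here place collection of the joints either 8 weeks after surgery or 24 h after an injection, so the time is not given here as known. The joint was taken whole, with cartilage, synovium, capsule and adjacent bone, and fewer cells of a type cannot be told apart from less RNA per cell.

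Neurotrophins are secreted growth factors that sensory neurons take up from the tissue they innervate. Each binds a Trk receptor tyrosine kinase, and all of them bind the p75 receptor, while ligands of the GDNF family bind a GFRα co-receptor that signals through RET. In joints they are studied for their part in sensitizing the nerve endings that carry pain and for the growth of nerves and vessels into diseased tissue.

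The values were counts divided by a size factor per joint (normalized counts), and from 27955496 to 52529973 reads were recovered per joint. The joints held the tissues that were named. Col2a1 of cartilage had a mean of 33265 normalized counts, Prg4 of the synovial lining 239229.7 and Ibsp of bone 12726. Skeletal muscle was also present, with a mean of 794459 for Myh4. Of 21 markers of sensory neurons and axons, 11 were measured, and Calca, Scn9a, Scn10a and Scn11a were not analysed here. A pair of joints stood apart by genes at 0, of which MSC 5 had 296 and STING-MSC 5 had 97, against at most 42 in the other joints.

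In no comparison did a member pass the test at an adjusted p of 0.05 (limma, Benjamini-Hochberg over all genes), and the 6 comparisons together held 1 such gene, 0.00676% of the genes tested. With edgeR and with DESeq2 on the recovered reads, 0 of the 8 members passed as well. The lowest adjusted p of a member was 0.339 in limma, 0.307 in edgeR and 0.186 in DESeq2, which gave no adjusted p for 3 members in MSC against control. Over all genes, the share at an adjusted p of 0.05 in edgeR was 0.101% in MSC against control, 0.00676% in TLR3-MSC against MSC and 0% in the other comparisons. In DESeq2 it was 0.730% in MSC, 0.0203% in TLR3-MSC and 0.575% in STING-MSC against control, 0.0473% in TLR3-MSC and 0.189% in STING-MSC against MSC, and 0.0135% in STING-MSC against TLR3-MSC. At an unadjusted p of at most 0.05, the members were Bdnf and Gfra1 in STING-MSC against control (2 of 8, with 12.2% of all genes), Artn in STING-MSC against MSC (1 of 8, with 4.94%) and Gfra1 in STING-MSC against TLR3-MSC (1 of 8, with 2.57%). There were 0 of 8 in MSC against control, with 8.55% of all genes, 0 of 8 in TLR3-MSC against control, with 3.58%, and 0 of 8 in TLR3-MSC against MSC, with 3.88%. In the test for any difference among the 4 groups, Gfra1 was the member at this level, 1 of 8 with 6.42% of all genes. Taking the 6 comparisons together, 3 of 8 members and 22.3% of all genes reached this level in at least 1. The count for STING-MSC against control was 1 without control 3, control 4, STING-MSC 3 or STING-MSC 4, and 3 without control 1, control 5, MSC 4 or STING-MSC 5 and with only the 2 groups compared. For STING-MSC against MSC it was 0 without MSC 2 or STING-MSC 5 and 2 without MSC 3 or STING-MSC 3, and for STING-MSC against TLR3-MSC it was 2, with Artn, without TLR3-MSC 1. For TLR3-MSC against control it was 1, Ntrk3, without control 1 or TLR3-MSC 2. Among the 4 groups it was 0 without STING-MSC 1 and 2 without MSC 5 or TLR3-MSC 1. In edgeR at the unadjusted level there were 2 of 8 members in STING-MSC against control, with 13.3% of all genes, and 2 of 8 in STING-MSC against TLR3-MSC, with 4.09%. There were 0 of 8 in MSC (8.85% of all genes) and TLR3-MSC (3.81%) against control and in TLR3-MSC (3.99%) and STING-MSC (4.85%) against MSC. In DESeq2 there were 2 of 8 in STING-MSC against control, with 15.2% of all genes, against MSC, with 6.26%, and against TLR3-MSC, with 4.57%. There were 0 of 8 in MSC (9.68%) and TLR3-MSC (4.25%) against control and in TLR3-MSC against MSC (4.69%). The comparisons share groups, and those with control share the same 5 control joints.

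**Figure D1:**
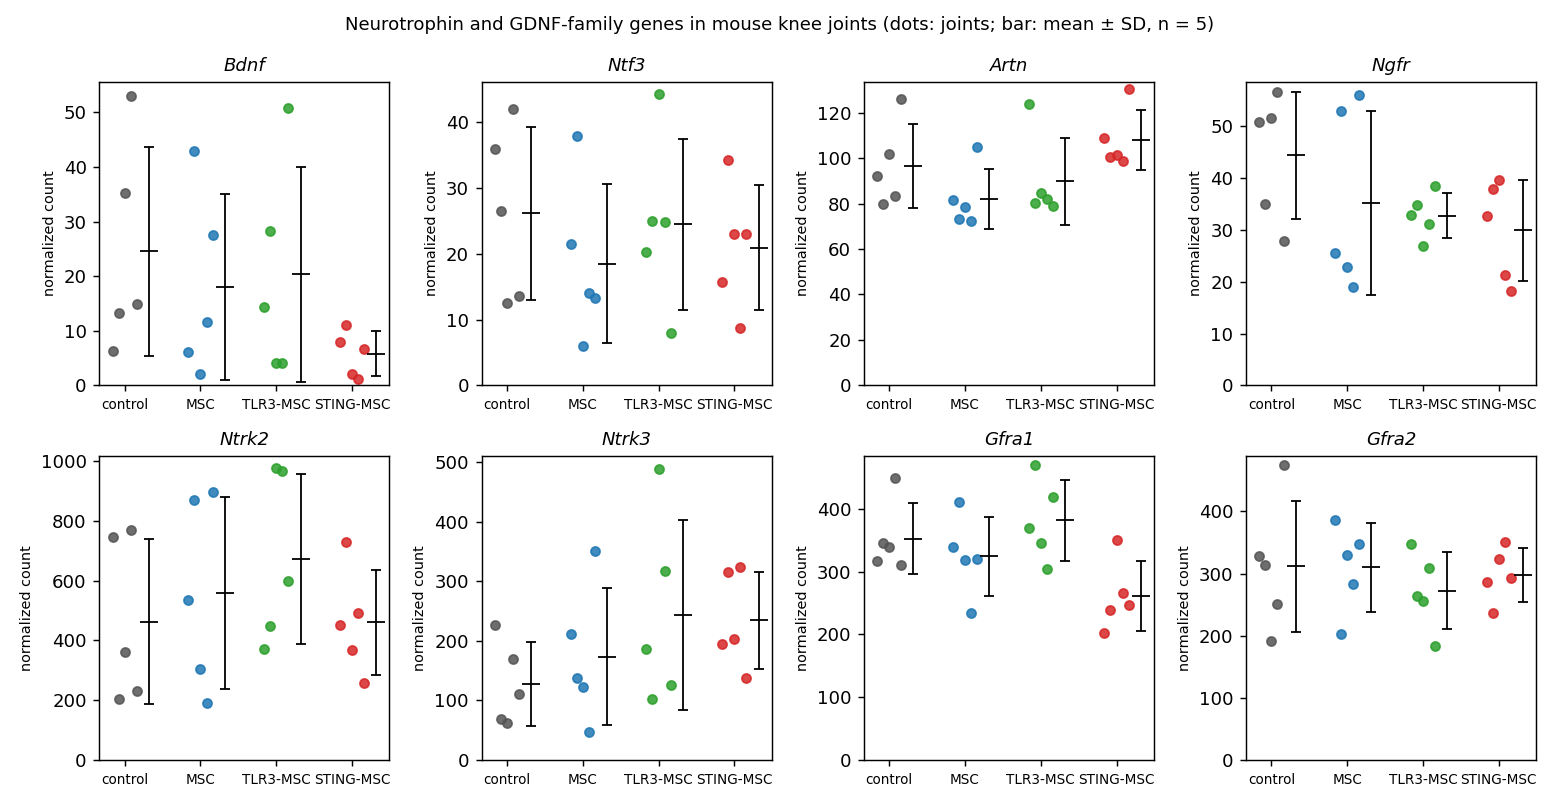
Normalized counts of the 8 members (vertical axes, from 0) in the 20 joints, by group (horizontal axes), with dots for joints and bars for the mean ± SD of 5 joints. The STING-MSC joints lie from 1.25 to 11.0 for Bdnf and from 202 to 351 for Gfra1, and overlap the control joints in both.

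Per kilobase of annotated exon, which allows levels of different genes to be set side by side, the order of the members was led by co-receptors. Over the 20 joints the mean normalized count per kilobase (± SD) was 81.4 ± 19.1 for Gfra2 and 51.8 ± 11.3 for Gfra1. It was 27.2 ± 5.13 for Artn, 18.0 ± 8.80 for Ntrk2, 13.0 ± 6.61 for Ntf3 and 10.3 ± 3.58 for Ngfr. Ntrk3 and Bdnf had the lowest levels, with 6.22 ± 3.63 and 2.26 ± 2.18 per kilobase. Between neighbours in this order the ranges of mean ± SD overlapped, except between Gfra1 and Artn. Ntrk2 and Ntrk3 have long annotated exons and are known to give truncated forms without the kinase, which counts per gene do not separate.

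Among the ligands, Bdnf (ENSMUSG00000048482, chr2:109505045-109557353, plus strand, GRCm39) encodes brain-derived neurotrophic factor, the ligand of TrkB, which sensory neurons release at their spinal endings. Its normalized counts were 6.35, 13.3, 35.2, 53.0 and 15.0 in control joints 1 to 5 and 6.03, 42.9, 2.0, 11.5 and 27.5 in MSC joints. They were 14.3, 28.3, 4.02, 4.14 and 50.9 in TLR3-MSC joints and 7.87, 11.0, 2.09, 1.25 and 6.72 in STING-MSC joints. Every STING-MSC joint was at or below 11.0, under the median of each other group, while each of the other groups had high and low joints, so that the groups overlapped. The means were 24.6 ± 19.2 in control, 18.0 ± 17.0 in MSC, 20.3 ± 19.7 in TLR3-MSC and 5.79 ± 4.08 in STING-MSC (SD, n = 5). STING-MSC was lower than control by a log2 difference of -1.83 (SE 0.80, 95% interval -3.51 to -0.16), on the scale of log2(normalized count + 1), which holds for all differences given here. Its adjusted p in limma was 0.382, and in an exact two-sided permutation test of 5 against 5 joints p = 0.0397, where the smallest possible value was 0.00794. The difference rested on few reads, from 1 to 9 per STING-MSC joint and from 6 to 58 per control joint. The unadjusted p was over 0.05 without control 3 (-1.62), control 4 (-1.48), STING-MSC 3 (-1.62) or STING-MSC 4 (-1.50), or with quantile normalization (-1.54). Without STING-MSC 5 the difference was -1.95. Against MSC, STING-MSC differed by -1.17 and against TLR3-MSC by -1.34, with intervals that include 0. The first reached an unadjusted p of at most 0.05 in DESeq2 (-1.64) and without MSC 3 (-1.69) but was -0.72 without MSC 2. The second reached it in edgeR (-1.83) and DESeq2 (-1.82) but was -0.88 without TLR3-MSC 5.

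Bdnf followed endothelial genes from joint to joint. After subtraction of group means over the 20 joints, the 3 genes of the table most like Bdnf were Emcn (r = 0.93), Adcy4 (r = 0.93) and Mmrn2 (r = 0.90), of which Emcn and Mmrn2 encode endothelial glycoproteins. With Emcn, Pearson's r was 0.93, Spearman's rho was 0.92, and r was 0.93 without the 2 joints farthest from the median of Bdnf. Of the 8 endothelial markers, 7 had r of at least 0.5 with Bdnf, and r with their summed level was 0.90 (rho 0.91, r 0.88 without the 2 farthest joints). These are descriptions only, since all genes of a joint share its library and its tissue composition.

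The summed normalized counts of the endothelial markers, of which Vwf was the most abundant gene, were 15477, 16683, 17565, 21493 and 19312 in control and 14282, 17269, 12680.3, 14132 and 15516 in STING-MSC joints. They were 14542, 20845, 14578, 16505 and 18774 in MSC and 14776, 15824, 11538, 12868 and 17499 in TLR3-MSC joints. None of the 8 markers was at 0 in any joint. Genes named from this and all other marker lists were chosen after their values were seen. In STING-MSC against control, 7 of the 8 had lower values, with a median log2 difference of -0.50 beside 0.01 over all genes. At an unadjusted p of at most 0.05 there were 5 of them (Pecam1, Cdh5, Kdr, Egfl7 and Cldn5), beside 12.2% of all genes. The log2 difference was -0.62 (95% interval -1.03 to -0.21) for Cdh5, a junction protein of vessels. In TLR3-MSC against control all 8 were lower, 1 of them at that level (beside 3.58% of all genes), with a median of -0.35. In STING-MSC against TLR3-MSC 7 of the 8 were lower, with a median of -0.11, and Vwf was higher, so that the sums of these 2 groups, 14501 ± 2359 in TLR3-MSC and 14776 ± 1718 in STING-MSC (SD, n = 5), lay close together. The part of vessel content in the Bdnf difference was not tested.

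**Figure D2:**
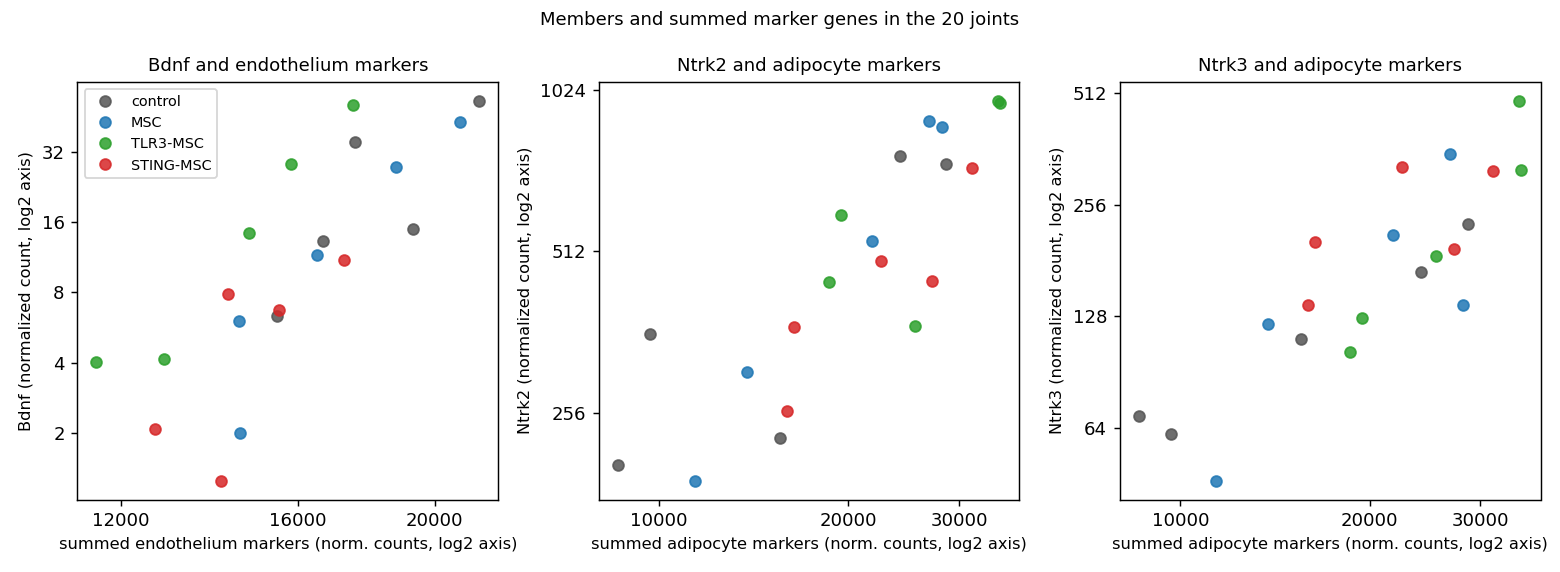
Normalized counts of Bdnf against summed endothelial markers, and of Ntrk2 and Ntrk3 against summed adipocyte markers, with 1 dot per joint, colours for groups and log2 axes in normalized counts. Joints with more of the markers tended to have more of the member in each panel, with r of 0.90 for Bdnf, 0.87 for Ntrk2 and 0.84 for Ntrk3 after subtraction of group means.

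Bdnf is transcribed from several starts, and the counts per gene pool them. Of the 9 listed genes, 7 had promoter windows in RefSeq (GRCm38.p6), 15 in all, of which 7 belonged to Bdnf. The windows were searched, on both strands and in the 250 bases before the start, for TGACGT, the core of the cAMP response element, to which CREB is known to bind at Bdnf in neurons. The letters were in 1 of the Bdnf windows and in 2 of the members' 15, the other belonging to Gdnf, and in 6.47% of all 32851 windows. The Bdnf window lies at chr2:109692186-109692435 on the plus strand and is given 5′ to 3′ with the match, on the other strand, in capitals.
Bdnf: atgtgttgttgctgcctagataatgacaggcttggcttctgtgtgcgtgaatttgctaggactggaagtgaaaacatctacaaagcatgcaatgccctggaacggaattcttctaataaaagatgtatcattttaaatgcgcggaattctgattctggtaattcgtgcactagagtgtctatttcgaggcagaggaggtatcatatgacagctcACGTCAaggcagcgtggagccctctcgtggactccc
The match covers chr2:109692400-109692405, and such a match is a description of the letters only.

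Ntf3 (ENSMUSG00000049107, chr6:126078375-126143874, minus strand) encodes neurotrophin-3, the ligand of TrkC, which maintains muscle and skin afferents. Its normalized counts were 35.99, 26.6, 12.6, 42.0 and 13.6 in control and 21.4, 37.9, 5.97, 14.0 and 13.2 in MSC joints. They were 20.2, 25.1, 44.2, 24.9 and 7.91 in TLR3-MSC and 15.7, 34.2, 22.9, 8.75 and 23.0 in STING-MSC joints. Joints with low and high Ntf3 were found in each group, and all 4 groups overlapped. The largest of its 6 differences was that of MSC against control, -0.55 on the log2 scale (95% interval -1.59 to 0.50), and it ran from -0.85 to -0.23 with 1 joint left out. The genes most like it were Bche (r = 0.74), Smim36 (r = 0.72) and Tmem205 (r = 0.71).

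Artn (ENSMUSG00000028539, chr4:117783359-117786961, minus strand) encodes artemin, the GDNF-family ligand that binds GFRα3 on nociceptors. The gene of that co-receptor was not analysed here. Artn varied least from joint to joint among the members, with 92.1, 79.7, 102, 83.1 and 126 in control and 81.8, 73.2, 78.6, 72.5 and 105 in MSC joints. It was 124, 80.1, 84.5, 81.8 and 79.1 in TLR3-MSC and 109, 100.3, 101.2, 98.7 and 130.5 in STING-MSC joints. In MSC, 4 of the 5 joints were below every STING-MSC joint, and MSC 5 overlapped them. Artn was 107.9 ± 13.2 in STING-MSC and 82.2 ± 13.2 in MSC (SD, n = 5), a log2 difference of 0.39 (SE 0.16, 95% interval 0.05 to 0.73). All 5 STING-MSC joints were above the MSC median, with an adjusted p in limma of 0.938 and p = 0.0317 in the exact permutation test. The unadjusted p was above 0.05 without MSC 2 (0.36), MSC 4 (0.35) or STING-MSC 5 (0.32) and in edgeR (0.36). Without MSC 5 the difference was 0.48. Against control, STING-MSC differed by 0.17 and MSC by -0.22, with intervals that include 0. These 2 were 0.31 and -0.10 with quantile normalization, and ran from 0.10 to 0.27 and from -0.31 to -0.12 with 1 joint left out. The genes most like Artn were Dmxl1 (r = 0.90), Adam22 (r = 0.86) and Tes3-ps (r = 0.86).

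Of the receptors, Ngfr (ENSMUSG00000000120, chr11:95459644-95478562, minus strand) encodes p75, which binds every neurotrophin and is also made by Schwann cells and some fibroblasts. Its normalized counts were 50.8, 35.0, 51.5, 56.6 and 27.9 in control and 25.5, 53.0, 22.9, 19.0 and 56.0 in MSC joints. They were 32.9, 34.8, 26.8, 31.1 and 38.4 in TLR3-MSC and 32.8, 37.9, 39.6, 21.2 and 18.2 in STING-MSC joints. In MSC the joints split into 2 with over 50 and 3 with under 26, and the lowest joint of all was STING-MSC 5. The largest difference was that of STING-MSC against control, -0.57 (95% interval -1.22 to 0.09), and all 5 STING-MSC joints were below the control median while 2 of the control joints lay among them. Without control 5 this difference was -0.72 at an unadjusted p of at most 0.05. The genes most like Ngfr were Zfp931 (r = 0.88), Zc2hc1a (r = 0.87) and Nhsl1 (r = 0.87). With the summed fibroblast markers r was 0.75 (rho 0.71, r 0.69 without the 2 farthest joints). With the summed Schwann cell markers, of which Pmp22 was the most abundant, Ngfr had r of at least 0.5 with 6 of 13, and with their sum r = 0.72 (rho 0.71, r 0.63 without the 2 farthest joints).

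Ntrk2 (ENSMUSG00000055254, chr13:58954383-59281785, plus strand) encodes TrkB, the receptor of BDNF, and was the member with the most counts. It had 744, 204, 359, 769.9 and 230.0 in control and 534, 870.5, 304, 191 and 896 in MSC joints. It had 371, 448, 976, 966 and 598 in TLR3-MSC and 451, 730.2, 369, 491 and 258 in STING-MSC joints. Within each group the highest joint had more than double the lowest, and the groups overlapped throughout. The largest difference was that of TLR3-MSC against control, 0.65 (95% interval -0.31 to 1.62), and it ran from 0.42 to 0.89 with 1 joint left out.

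Ntrk3 (ENSMUSG00000059146, chr7:77825707-78387761, minus strand) encodes TrkC, the receptor of neurotrophin-3. Its normalized counts were 227, 68.9, 61.6, 169 and 111 in control and 212, 137, 122, 46.2 and 350.1 in MSC joints. They were 186, 103, 488, 317 and 127 in TLR3-MSC and 194, 316, 203, 324 and 137 in STING-MSC joints. All 5 STING-MSC joints were above the control median, and control 1 and control 4 lay among them. The largest difference was that of STING-MSC against control, 0.98 (95% interval -0.08 to 2.04). It reached an unadjusted p of at most 0.05 with quantile normalization (1.10), without control 1 (1.23), without STING-MSC 5 (1.16), and with an unmoved difference without MSC 4 or in a fit of the 2 groups alone.

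Ntrk2 and Ntrk3 varied together and with the genes of fat. Between them over the 20 joints, after subtraction of group means, Pearson's r was 0.80, Spearman's rho was 0.76, and r was 0.74 without the 2 joints farthest from the median of Ntrk2. The genes most like Ntrk2 were Rbp4 (r = 0.96), Trarg1 (r = 0.95) and Aoc3 (r = 0.95), which encode a retinol carrier, a regulator of glucose transport in adipocytes and an amine oxidase of adipocytes and vessels. Those most like Ntrk3 were Rtn1 (r = 0.93), Vit (r = 0.93) and Aldh1a3 (r = 0.92). Of the 7 adipocyte markers, 6 had r of at least 0.5 with each of the receptors. With their summed level, r was 0.87 for Ntrk2 (rho 0.89, r 0.83 without the 2 farthest joints) and 0.84 for Ntrk3 (rho 0.83, r 0.83).

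With the summed Schwann cell markers, of which Pmp22 was the most abundant, r of Ntrk2 was 0.86 (rho 0.87, r 0.82 without the 2 farthest joints), and 4 of the 13 had r of at least 0.5, with a median of 0.45. The adipocyte markers, led by Cfd and with none at 0 in any joint, summed to 28628, 8591, 9675, 24113 and 15555 in control joints and 21775, 28152, 13777, 11398 and 26858 in MSC joints. They summed to 25515, 18642, 34609, 34850.2 and 19447 in TLR3-MSC and 27198, 31457, 16375, 22541 and 15970.0 in STING-MSC joints. Control 2 and control 3, with the least of these markers, were also the control joints with the least Ntrk3. The least Ntrk2 in control was in control 2 (204) and control 5 (230.0), with 359 in control 3. The median log2 difference of the 7 markers was 0.88 in TLR3-MSC against control, 2 of them at an unadjusted p of 0.05 or less, and 0.65 in STING-MSC against control (0.43 in edgeR and 0.43 in DESeq2), with 0. Over all genes the median was -0.01 and 0.01, and 3.58% and 12.2% of them were at that level. Of the 7 keratinocyte markers, 5 had r of at least 0.5 with each of the 2 receptors, and r with their summed level was 0.57 (rho 0.63, r 0.62 without the 2 farthest joints) for Ntrk2 and 0.59 for Ntrk3 (rho 0.71, r 0.67). Control 1 and TLR3-MSC 4, the 2 joints with by far the most of these markers, also had the most adipocyte markers of their groups. The part of fat and of skin in the values of Ntrk2 and Ntrk3 was not tested.

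Gfra1 (ENSMUSG00000025089, chr19:58224036-58444342, minus strand) encodes GFRα1, the co-receptor that binds GDNF. Its normalized counts were 317, 346, 339, 450.3 and 310.3 in control and 339.8, 411, 318, 235 and 319.6 in MSC joints. They were 370.0, 471, 346, 305 and 419 in TLR3-MSC and 202, 239, 351, 266 and 247 in STING-MSC joints. Of the STING-MSC joints, 4 lay below every control joint and every TLR3-MSC joint, and STING-MSC 3 overlapped both groups. The means were 352 ± 56.7 in control, 325 ± 62.8 in MSC, 382 ± 64.6 in TLR3-MSC and 261 ± 55.7 in STING-MSC (SD, n = 5). Against control, STING-MSC was lower in 4 of 5 joints than the lowest control joint, a log2 difference of -0.44 (SE 0.16, 95% interval -0.79 to -0.10), with an adjusted p in limma of 0.339 and p = 0.0397 in the exact permutation test. Against TLR3-MSC the log2 difference was -0.56 (SE 0.16, 95% interval -0.90 to -0.21), with an adjusted p in limma of 0.890 and p = 0.0238 in the exact permutation test. Against MSC the difference was -0.32 (95% interval -0.66 to 0.03), and the interval includes 0. It reached an unadjusted p of at most 0.05 with quantile normalization (-0.31), without MSC 4 (-0.43) and without STING-MSC 3 (-0.43).

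Both named differences of Gfra1 kept an unadjusted p of at most 0.05 under all 28 alternative settings that were run, and without STING-MSC 5 they were -0.43 and -0.54. Settings that left out a joint of a group not compared could change the p but not the difference. The test among the 4 groups lost the unadjusted level without STING-MSC 1, with 0 members. Of the annotated exon bases of Gfra1, 22.6% are shared with lncRNA genes on the other strand, and reads of these cannot be told apart where the counting does not use strand. The genes most like Gfra1 were Cpxm1 (r = 0.83), Kcns1 (r = 0.83) and Ebf1 (r = 0.83). With the 9 summed chondrocyte markers, led by Col2a1, r of Gfra1 was 0.75 (rho 0.74, r 0.70 without the 2 farthest joints). Of the 12 fibroblast markers, led by Prg4, 7 had r of at least 0.5 with Gfra1, and r with their summed level was 0.62 (rho 0.62, r 0.59 without the 2 farthest joints). For the summed markers of repair Schwann cells r was 0.65, with 0 of the 3 at r of at least 0.5. For those of osteoblasts and osteocytes it was 0.64, with 3 of the 8.

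The summed fibroblast markers were 336813, 440636, 729748, 1014721 and 269445 in control and 262927, 282607, 204459, 300756 and 81721 in STING-MSC joints. They were 307664, 633269, 434618, 363055 and 806656 in TLR3-MSC joints, and none of the 12 was at 0. In STING-MSC against control, 8 of the 12 were lower, with 2 at an unadjusted p of at most 0.05, Col3a1 (-2.05) and Lum (-1.71), beside 12.2% of all genes. The median was -0.71 beside -0.54 in MSC (-0.25 in edgeR and -0.27 in DESeq2) and 0.08 in TLR3-MSC against control. In STING-MSC against TLR3-MSC, 11 of the 12 were lower, with a median of -0.73. The 9 chondrocyte markers summed to 36758, 29454, 76434, 33219 and 55317 in STING-MSC joints, and STING-MSC 3, the joint with the most Gfra1 of its group, had the most of these, while STING-MSC 4 had the most of the fibroblast markers. The mean sum of the chondrocyte markers was 87261 ± 59313 in control and 46236 ± 19592 in STING-MSC (SD, n = 5), with 0 at an unadjusted p of at most 0.05, beside the same 12.2%. In STING-MSC against TLR3-MSC their median was 0.08, or -0.21 in edgeR and -0.19 in DESeq2. The part of these cells in the Gfra1 difference was not tested.

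Gfra2 (ENSMUSG00000022103, chr14:71127560-71217279, plus strand) encodes GFRα2, the co-receptor that binds neurturin. Its normalized counts were 328, 314, 191, 250.2 and 474 in control and 387, 202, 329, 283 and 348 in MSC joints. They were 348, 264, 256, 309.7 and 183 in TLR3-MSC and 287, 236, 323, 351 and 293 in STING-MSC joints. The groups overlapped throughout, and control held both the highest joint and the second lowest. The largest difference, TLR3-MSC against MSC, was -0.18 (95% interval -0.65 to 0.28), and it ran from -0.33 to -0.05 with 1 joint left out. For STING-MSC against control it was -0.01 (95% interval -0.48 to 0.45), with either sign when 1 joint was left out (-0.17 to 0.16) and 0.09 with quantile normalization. The genes most like Gfra2 were Med19 (r = 0.85), Mtmr14 (r = 0.84) and Oga (r = 0.84).

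**Figure D3:**
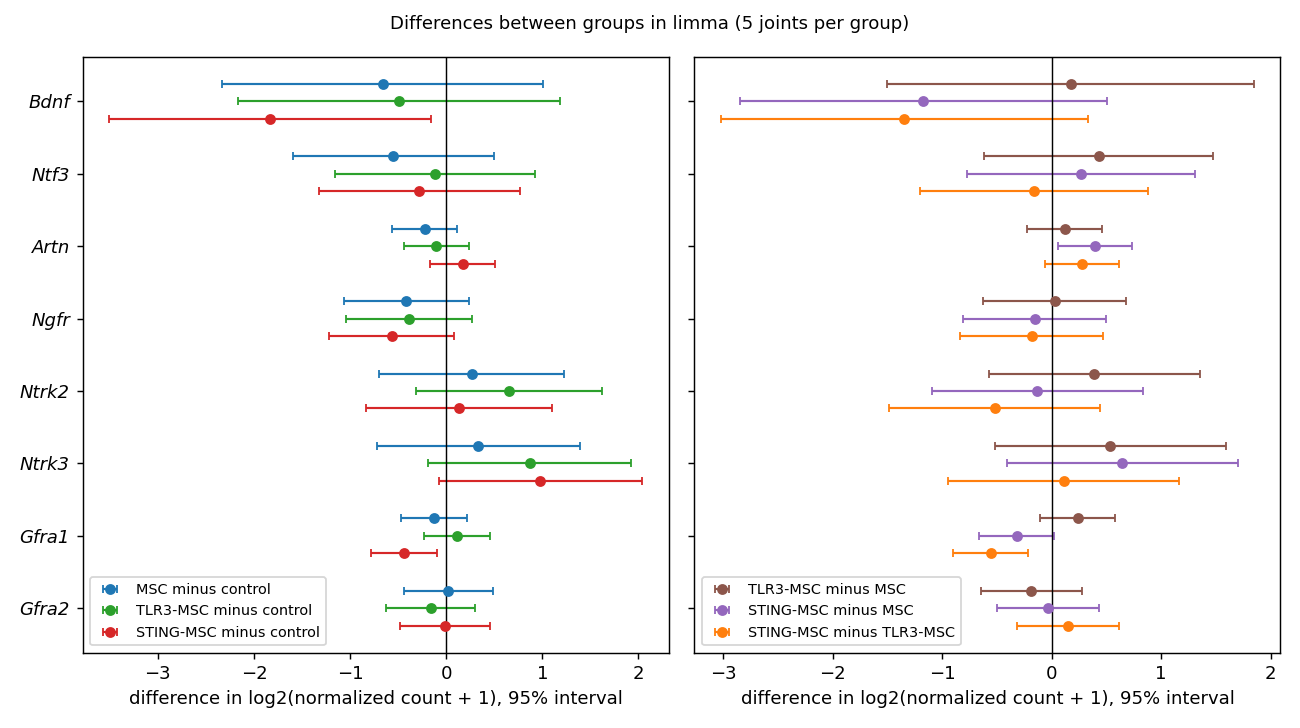
Differences between groups in log2(normalized count + 1) for the 8 members from limma, with points for estimates and bars for 95% intervals, for comparisons with control (left) and between treatments (right). The intervals leave out 0 for Bdnf (-1.83) and Gfra1 (-0.44) in STING-MSC against control, for Artn (0.39) in STING-MSC against MSC and for Gfra1 (-0.56) in STING-MSC against TLR3-MSC.

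Across the 28 pairs of members, within-group correlations had a median r of 0.14, and 4 pairs had an absolute r of at least 0.5. Besides Ntrk2 with Ntrk3, these were Ngfr with Ntrk2, Ngfr with Bdnf, and Bdnf with Gfra2. For Ngfr and Ntrk2, Pearson's r was 0.68, Spearman's rho was 0.68, and r was 0.56 without the 2 joints farthest from the median of Ngfr. For Ngfr and Bdnf, Pearson's r was 0.55, Spearman's rho was 0.53, and r was 0.56. For Bdnf and Gfra2, Pearson's r was -0.61, Spearman's rho was -0.55, and r was -0.57, so joints with more Bdnf had less Gfra2. Both GFRα co-receptors signal through RET, and Ret, chosen after its values were seen, was compared with both over the 20 joints. With Gfra1, Pearson's r was 0.58, Spearman's rho was 0.56, and r was 0.67 without the 2 farthest joints. With Gfra2, Pearson's r was -0.72, Spearman's rho was -0.65, and r was -0.71. In Ret, normalized counts ran from 150.2 to 303 in STING-MSC joints and from 167 to 905 in control joints, with a log2 difference of -0.82 (95% interval -1.96 to 0.32).

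As a list, 5 of the 8 members were lower in STING-MSC than in control, and 6 of 8 in edgeR and in DESeq2 but 4 of 8 with quantile normalization. The median log2 difference was -0.14 beside 0.01 over all genes. It was -0.17 in MSC and -0.11 in TLR3-MSC against control. It was 0.21 in TLR3-MSC against MSC, -0.08 in STING-MSC against MSC and -0.17 in STING-MSC against TLR3-MSC, where the median of all genes lay between 0.02 and 0.03. With quantile normalization the medians against control were -0.05 in STING-MSC, -0.07 in MSC and -0.10 in TLR3-MSC. The other 3 were then 0.10, -0.06 and -0.06, and for STING-MSC against MSC it was -0.18 in edgeR and -0.14 in DESeq2.

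Around the members, 89 of 99 other listed genes of the pathway were measured, and 0 of them passed at an adjusted p of 0.05 in limma in any comparison. At an unadjusted p of at most 0.05, 30 of the 89 did so in at least 1 comparison (33.7% beside 22.3% of all genes), and the 12 with the smallest p are described here. Among 6 other ligands, Mdk and Ptn encode midkine and pleiotrophin, growth factors of nerve and cartilage. Mdk was 254, 333, 437, 393 and 288 in control and 109, 171, 253, 174 and 137 in STING-MSC joints. The highest STING-MSC joint was just below the lowest control joint, and the log2 difference was -1.04 (SE 0.22, adjusted p in limma 0.208, exact permutation p = 0.00794). Ptn differed by -1.51 in STING-MSC and by -1.03 in MSC against control.

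Among 11 other receptors and co-receptors, 2 were higher (Sort1 and Sorl1) and 2 lower (Sorcs2 and Sdc3) at an unadjusted p of at most 0.05 in STING-MSC against control. In this comparison 12.2% of all genes were at that level. Sort1, which encodes sortilin, the partner of p75, differed by 0.40 in that comparison. Sorl1 differed by 0.42 in MSC, 0.37 in TLR3-MSC and 0.52 in STING-MSC against control. Of 9 genes of pro-neurotrophin processing, 0 were higher and 3 lower (Pcsk5, Plat and Mmp3) at that level in STING-MSC against control. Sorcs2, Sdc3, Pcsk5, Plat and Mmp3 were chosen after their values were seen. Pcsk7, a proprotein convertase, differed by 0.22 in MSC and 0.17 in TLR3-MSC against control. None of these passed at the adjusted level. Beside the same 12.2% of all genes at an unadjusted p of at most 0.05 in STING-MSC against control, 2 of 39 adaptors and signalling genes of Trk and RET were higher and 2 lower. Of 13 genes of p75 signalling 0 were higher and 1 lower at that level. The medians of these 2 lists were near 0 (-0.04 and -0.02), and were -0.03 and 0.00 with quantile normalization and -0.02 and -0.02 in DESeq2.

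Of the genes that answer to neurotrophins and other growth signals within minutes to hours, those measured had lower mean log2 values in STING-MSC and TLR3-MSC than in control. All 11 measured were lower in STING-MSC than in control, as in edgeR, DESeq2 and quantile normalization, with a median log2 difference of -0.71. Of the 11, 6 were at an unadjusted p of at most 0.05, beside 12.2% of all genes. In TLR3-MSC against control all 11 were lower as well, 2 at that level (Egr1 and Fos, beside 3.58% of all genes), with a median of -0.36. In MSC against control 9 of the 11 were lower, 1 at that level (beside 8.55% of all genes), with a median of -0.09. For these 11 it was 7 of 11 and -0.02 with quantile normalization, 8 of 11 and -0.13 in edgeR and 8 of 11 and -0.15 in DESeq2. Of all 14793 genes, 7149 were lower in STING-MSC, 7709 in TLR3-MSC and 8541 in MSC against control, with a median of -0.04 in MSC. In STING-MSC against MSC, 9 of the 11 were lower, 6 at that level (beside 4.94% of all genes), with a median of -0.70. Egr1, a transcription factor, was 2692, 2695, 4315, 5559 and 2082 in control and 1425, 840.3, 1614, 1013 and 604 in STING-MSC joints, and the groups did not overlap. Its log2 difference was -1.65 (SE 0.38, adjusted p in limma 0.256, exact permutation p = 0.00794). Fos differed by -1.54 against control and -1.53 against MSC, Junb by -0.71 and -0.70, and Egr2 by -1.12 and -1.03. Etv5 differed by -0.64 in STING-MSC against control and -0.55 against TLR3-MSC, Etv4 by -1.94 in MSC against control (-1.25 without MSC 5) and Spry4 by -0.81 in STING-MSC against MSC. Of the differences given for the 12 genes, those of Ptn in MSC, of Sorl1, Pcsk7, Egr1 and Fos in TLR3-MSC against control and of Etv5 in STING-MSC against TLR3-MSC lost the unadjusted level in at least 1 alternative setting, and the others kept it in all. Bdnf, itself such a gene in neurons, had r = 0.39 with Egr1 and r = 0.24 with Fos over the 20 joints within groups, both chosen after their values were seen.

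The cells that bear or support nerve endings were checked by their markers. Of the 11 measured markers of sensory neurons and axons, led by Uchl1, 10 were lower in STING-MSC than in control (9 with quantile normalization). Of these, 1 was at an unadjusted p of at most 0.05, beside 12.2% of all genes. In MSC against control 8 were lower, 2 at that level (beside 8.55% of all genes), and in TLR3-MSC against control 6 were lower, 1 at that level (beside 3.58%). The median was -0.25 in STING-MSC, -0.50 in MSC and -0.21 in TLR3-MSC against control, or -0.16, -0.21 and -0.18 with quantile normalization. Their summed level was 1091 ± 179 in control, 819 ± 207 in MSC, 909.7 ± 211 in TLR3-MSC and 781 ± 31.99 in STING-MSC (SD, n = 5), and Tac1, Trpv1 and Prph were at 0 in at least 1 joint. Of 13 Schwann cell markers, 10 were lower in STING-MSC than in control (9 with quantile normalization), with a median of -0.33 beside -0.25 in MSC (-0.16 with quantile normalization) and 0.05 in TLR3-MSC against control. Their summed level was 7589.9 ± 1201 in control and 6999.8 ± 726 in STING-MSC. Of 8 neutrophil markers, all were higher in STING-MSC than in control, 6 at that level (beside 12.2% of all genes), with a median of 0.49. All 8 were also higher in MSC than in control, 5 at that level (beside 8.55%), with a median of 0.50, and in TLR3-MSC than in control, 0 at that level (beside 3.58%), with a median of 0.25. All 8 had r of at most -0.5 with Bdnf. Keratinocyte markers were uneven, summing to 21879 in TLR3-MSC 4 and 5939 in control 1 against at most 1216 in the other joints. The part of these cells in the members' values was not tested.

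The remaining marker lists are given by their median log2 difference in STING-MSC against control, out of 18 lists and 144 correlations of members with lists. Of all genes, 12.2% were at an unadjusted p of at most 0.05 in this comparison. The median was 0.02 for 14 skeletal muscle markers, -0.52 for 9 of smooth muscle and pericytes, with 2 lower at an unadjusted p of at most 0.05 (Pdgfrb and Notch3), and -0.35 for 9 of chondrocytes. It was -0.09 for 8 markers of osteoblasts and osteocytes (-0.17 in edgeR), 0.24 for 4 of marrow stroma and -0.07 for 3 of repair Schwann cells. Among blood and immune lists it was 0.00 for 8 macrophage, -0.04 for 6 B lineage (0.00 in edgeR and 0.01 in DESeq2), 0.15 for 5 T lineage (0.29 with quantile normalization and 0.06 in edgeR) and 0.09 for 6 erythroid markers (0.15 with quantile normalization). For 6 mast cell markers it was 0.68, with 1 higher at that level, and r of Bdnf with their summed level was -0.77 (rho -0.81, r -0.75 without the 2 farthest joints), with 3 of the 6 at r of at most -0.5. The mast cell median was 0.68 in TLR3-MSC against control, with 2 higher at that level (beside 3.58% of all genes), and 0.33 in MSC against control, with 0 (beside 8.55%). For 7 keratinocyte markers it was -1.68 in STING-MSC against control (-3.55 in edgeR and -3.47 in DESeq2), with 0 at that level and Krt5, Krt14, Krt1 and Krt15 at 0 in at least 1 joint. Beside the correlations given above, all 6 erythroid markers had r of at most -0.5 with Ngfr and with Bdnf, and 5 of them with Ntrk2. With Gfra2, 5 of the 6 had r of at least 0.5. Of the 12 fibroblast markers, 9 had r of at least 0.5 with Ntrk2. Of the 9 smooth muscle and pericyte markers, 5 had r of at least 0.5 with Ngfr, 5 with Bdnf, and 5 had r of at most -0.5 with Gfra2.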

How the data were processed

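The deposited signal was a table of normalized counts of 14793 genes in 20 joints. According to the submitters' notes, the authors aligned the reads to GRCm39 with STAR (version 2.7.3a), counted them per gene with HTSeq, and divided the counts of each joint by a median-ratio size factor before deposit, and they named DESeq2 for their own tests. Whether the counting used strand is not stated in the sources used here.

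The values were fitted as log2(normalized count + 1) with limma (version 3.58.1, R 4.3.3) with the trend option, over all 20 joints and 4 groups, with Benjamini-Hochberg adjustment over 14793 genes. A minimum mean of 5 removed 0 genes. Each member was also compared by an exact two-sided permutation test over the 252 splits of 5 joints against 5, on the mean log2 value. Whole reads were recovered from the step of each joint, with from 99.84% to 99.92% of the values within 0.1 of a whole number, and were used for edgeR (version 4.0.16) and DESeq2 (version 1.42.0). Correlations were computed over 20 joints after subtraction of group means, and tables and plots were made in Python 3.11.15.

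The members, the gene lists and the rule for named genes were fixed with earlier results on these data known. The rule took the values of every member, the largest of its 6 differences, its tests where an unadjusted or exact p was at most 0.05, the 12 other pathway genes with the smallest p and the 3 genes most like each member. All other genes in the text, those from the marker lists among them, were picked with their values in view. Results for 2 genes of the lists are not reported here. Levels per kilobase used the exon length of GENCODE vM39. Exon bases shared with lncRNA genes on the other strand made up 22.6% in Gfra1, 13.5% in Bdnf, 12.3% in Ntf3, 8.47% in Gfra2 and 1.24% in Ntrk3, and 0% in Ngfr, Ntrk2 and Artn. Replicate numbers were read from the labels, and joints with the same number are different mice.

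The code was tried on simulated counts for STING-MSC against control, with 100 genes changed 2-fold and 100 changed 4-fold. At an adjusted p of 0.05, limma called 75 and 92 of them in the right direction, with 6 false calls. In edgeR it was 74 and 92, with 7. The changed genes were drawn at random from all genes, with noise independent between genes. Within groups the SD on the log2 scale was 0.23 for Artn and 1.33 for Bdnf, beside a median of 0.26 over all genes. These shares therefore do not tell how often a changed member would be called.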

Additional observations from a re-analysis of the deposited data

Results flagged for a closer look

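In 2 of the 32 groups of 5 joints tested (8 members in 4 groups), a joint lay far from the others by Dixon's ratio on the log2 scale, which compares the gap to the nearest joint with the whole range. Chance gives this in about 1 in 20 groups. Control 4 had the highest Gfra1 of its group, with a normalized count of 450.3 and a ratio of 0.711. TLR3-MSC 1 had the highest Artn of its group, with a normalized count of 124 and a ratio of 0.855. Without control 4, the difference of Gfra1 between STING-MSC and control was -0.35 and kept an unadjusted p of at most 0.05.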

How the results depend on the processing

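The differences of Gfra1 (STING-MSC against control and against TLR3-MSC) kept their direction and an unadjusted p of at most 0.05 under all 28 alternatives, from -0.56 to -0.35 and from -0.67 to -0.47 with 1 joint left out. Alternatives that left out a joint of another group, blocked by replicate number or fitted the 2 groups alone could not move the difference itself. With 1 joint left out, Bdnf in STING-MSC against control ranged from -2.20 to -1.48 and Artn in STING-MSC against MSC from 0.32 to 0.48. Over all alternatives the smallest difference of Bdnf was -1.30, and the range of Artn was unchanged. None of the 4 differences at an unadjusted p of at most 0.05 reversed, nor did the largest difference of any member. Other differences did change sign in some settings. In STING-MSC against control these were those of Gfra2, near 0, and Ntrk2, each in 5 settings. Elsewhere they included Ngfr in TLR3-MSC against MSC (7 settings), Gfra2 in MSC against control (6) and Ntrk3 in STING-MSC against TLR3-MSC (6).

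The number of members at an unadjusted p of at most 0.05 in STING-MSC against control was 1 with a minimum mean of 20, which removed Bdnf, so that Bdnf had no value there. For STING-MSC against MSC it was 2 in DESeq2, 0 in edgeR and 2 with quantile normalization. For STING-MSC against TLR3-MSC it was 2 in DESeq2 and 2 in edgeR. With 1 joint left out, the number ranged from 0 to 1 in TLR3-MSC against control, 1 to 3 in STING-MSC against control, 0 to 2 in STING-MSC against MSC, 1 to 2 in STING-MSC against TLR3-MSC and 0 to 2 among the 4 groups. It was 0 throughout in MSC against control, in TLR3-MSC against MSC and at an adjusted p of 0.05. The cause was not tested. The test among the 4 groups was not run with only the 2 groups compared.

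Over all genes, the count at an unadjusted p of at most 0.05 in STING-MSC against TLR3-MSC was 380, with 676 in DESeq2, 605 in edgeR and 1258 when only the 2 groups were fitted, and 144 to 758 with 1 joint left out. TLR3-MSC against MSC had 574, or 343 with only the 2 groups, and 363 to 1477 with 1 joint left out. With 1 joint left out the range was 852 to 2468 in MSC against control (1265 with all joints), 301 to 810 in TLR3-MSC against control (530) and 868 to 2329 in STING-MSC against control (1808).

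The split of these genes into higher and lower differed between settings, and edgeR changes the count model as well as the scaling. In MSC against control 835 were higher and 430 lower, against 1014 and 263 with quantile normalization and 1040 and 269 in edgeR. In STING-MSC against control 967 were higher and 841 lower, with 998 and 773 with quantile normalization and 830 and 1140 in edgeR. In TLR3-MSC against MSC 279 were higher and 295 lower, against 156 and 412 with quantile normalization. In STING-MSC against MSC 410 were higher and 321 lower, against 282 and 358 with quantile normalization and 203 and 514 in edgeR. In STING-MSC against TLR3-MSC 116 were higher and 264 lower, against 162 and 237 with quantile normalization and 68 and 537 in edgeR. No setting with all joints moved the median of all genes by more than 0.042 (log2).

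With the replicate number as a block, the numbers of members were unchanged in all 6 comparisons. Joints with the same number did not pair, with mean correlations from -0.14 to 0.11 in the 6 comparisons. Few reads limit Bdnf, with 1 to 9 per STING-MSC joint.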
